A study of Mus musculus with 24 samples.

Results

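Loss of Cdc14a on top of loss of Cdc14b was examined at day 7 of neural differentiation by setting 2 Cdc14ab KO libraries against 2 Cdc14b KO libraries, 4 libraries of the 24 in the series. The 4 were chosen by genotype and day alone, with no measured value used. Cdc14ab KO lines lack both Cdc14a and Cdc14b. Cdc14b KO lines lack Cdc14b and keep Cdc14a, so the absence of Cdc14b is common to the 4 libraries and the presence of Cdc14a is what differs. The study also holds Cdc14a KO and wild-type (WT) lines, and samples all 4 genotypes at days 0, 2 and 7 as 2 clones per genotype, numbered 1 and 3.

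All lines are mouse embryonic stem (ES) cells derived from blastocysts, and each clone is 1 line, so a difference between lines of unlike genotype may also be a difference between lines. Before day 0 the cells were kept in LIF on feeders, which were removed by low-density plating on gelatin. Differentiation was started by exchanging LIF medium for N2B27, a serum-free neural medium, with EGF and FGF2. On day 6 the cells were moved to laminin at high density without the growth factors, so the day 7 libraries come from cells 1 day after that step. RNA was read from its 3′ end, and levels are therefore given as normalized counts with no division by transcript length. Whether the clones came from separate embryos is not stated, and the p-values measure only the spread between these lines.

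CDC14A and CDC14B are phosphatases of dual specificity that act on sites phosphorylated by cyclin-dependent kinases, best known from mitotic exit in budding yeast, where a single Cdc14 protein serves. In ES cells UTF1 sits on promoters that carry activating and repressive histone marks together, and the series title names it as the target through which CDC14 acts on differentiation. In neural culture ES cells lose the pluripotency program, pass through a neuroectodermal state marked by Sox1, Sox3 and Pax6, and then switch on genes of neurons. Krt8, Krt18, Krt7 and Krt19, the keratins of simple epithelia, and factors such as Cdx2, Gata3 and Tead4 mark trophectoderm, the outer layer of the blastocyst.

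Read totals of the 4 libraries were 7687979 and 10040787 in Cdc14ab KO clones 1 and 3, and 7208282 and 8681196 in Cdc14b KO clones 1 and 3, within the 6422883 to 10856721 of the series. Gm42418, a locus that overlaps ribosomal RNA, took 1.888% to 3.227% of reads in these 4. Summed neuronal cytoskeleton markers (24 genes) came to 23584 and 24306 normalized counts in Cdc14ab KO libraries and 15368 and 35680 in Cdc14b KO libraries. WT libraries had 47120 and 122234, and Cdc14a KO libraries 49634 and 106723. Tubb2b alone gave 20075 and 20489 of these sums in Cdc14ab KO and 12375 and 29298 in Cdc14b KO. Summed neuronal RNA-binding markers (17 genes) came to 1350 and 1443 in Cdc14ab KO, 1461 and 2162 in Cdc14b KO, and 2444 and 5069 in WT. Summed general pluripotency markers (18 genes) came to 38012 and 35198 in Cdc14ab KO libraries and 39340 and 40103 in Cdc14b KO libraries. Members differed: Cdh1 gave 7074 and 12489 of these sums in Cdc14ab KO and 7709 and 6276 in Cdc14b KO. Pou5f1 gave 8108 and 5371 in Cdc14ab KO and 8305 and 7078 in Cdc14b KO. Markers of both states were therefore present in every library, and in bulk RNA fewer cells of a type and less RNA per cell cannot be told apart. Summed feeder fibroblast markers (23 genes) were 6570 and 2885 in Cdc14ab KO libraries and 3227 and 3823 in Cdc14b KO libraries. The WT clone 3 library of day 7 carries 1 label field that calls it undifferentiated. Yet it held the larger WT value of each neuronal sum given above. Y-linked genes summed to 28.5 and 57.1 normalized counts in Cdc14ab KO libraries and 19.2 and 22.7 in Cdc14b KO libraries, against 512 and 68.4 in Cdc14a KO and 465 and 201 in WT libraries.

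The clones of Cdc14ab KO were less alike than 1 of them was to the single knockout, a trait that other genotypes shared. Cdc14ab KO clone 1 lay at a root mean square log2 distance of 0.63 from Cdc14b KO clone 1 (Pearson r = 0.972 across genes) and 0.85 from Cdc14b KO clone 3 (r = 0.949), but 1.11 from Cdc14ab KO clone 3 (r = 0.924). Cdc14ab KO clone 3 stood apart from all 7 other day 7 libraries, at 1.11 to 1.345. It also had the largest share of genes at 0 among them, 2.605% against 1.134% to 1.869%, although it had the most reads. The part of this in its distances was not tested. Between the Cdc14ab KO clones, 7.81% of genes differed by at least 4-fold, against 5.98% between the Cdc14b KO clones. The clones lay 1.007 apart in Cdc14b KO, 0.901 in Cdc14a KO and 0.813 in WT. Cdc14a KO and WT were closer than that, at 0.637 for clone 1 and 0.601 for clone 3. The closest pairs of libraries thus shared a clone number, but clone 3 of Cdc14ab KO and clone 3 of Cdc14b KO lay 1.161 apart. Genes within a library are not independent, and these distances describe the libraries only. The SE of each difference below comes from the spread pooled over the 12 groups, to which the Cdc14ab KO clones add 1 of 12 degrees of freedom. A gene whose own clones differ widely therefore has an SE smaller than its clones alone would give, and the values of both clones are printed for that reason.

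**Figure D1:**
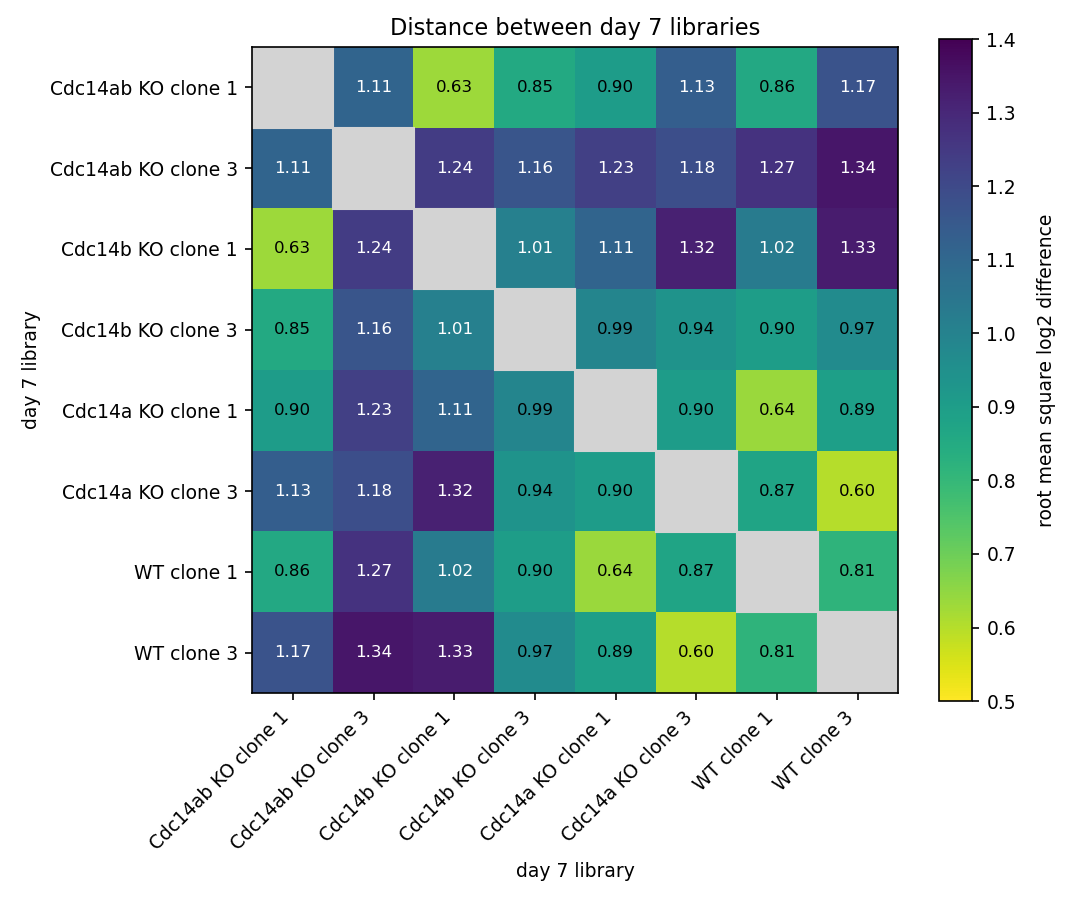
Root mean square log2 difference between each pair of day 7 libraries over all genes tested (darker is more distant, grey marks a library against itself). The cells of Cdc14ab KO clone 3 are dark throughout (1.11 to 1.345), while Cdc14ab KO clone 1 and Cdc14b KO clone 1 differ by 0.63.

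No gene passed the test. limma called 0 of 16158 genes (0%) at an adjusted p under 0.05. At an unadjusted p under 0.05 it had 774 genes (4.79%), 525 of them higher and 249 lower in Cdc14ab KO. That share is no larger than the threshold of 0.05 would give without any difference. edgeR's quasi-likelihood test also called 0, with 1076 genes at an unadjusted p under 0.05, while DESeq2 called 18 of the 12085 genes it gave an adjusted p (0.149%), described below. The median log2 difference over all genes was 0.01 with a median SE of 0.55. The data bound the differences only loosely, by 95% intervals not adjusted for the number of genes. These lay within 1 log2 unit of 0 for 2591 genes and within 2 for 10745 (66.5%). For most genes a 2-fold difference was thus not detectable in 2 clones against 2, and larger ones could also be missed after adjustment. Counting order instead, both Cdc14ab KO libraries lay above both Cdc14b KO libraries for 2426 genes (15.0%) and below both for 2095 (13.0%), and these shares are the background for every list below. An exact permutation of 2 against 2 cannot go below p = 0.33.

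The deleted genes were examined first. Cdc14a (chromosome 3, 116272553 to 116424032, minus strand, GRCm38) was close to the detection limit everywhere, at 8.84 and 5.04 normalized counts in Cdc14ab KO and 9.12 and 4.37 in Cdc14b KO at day 7, which is 9, 6, 9 and 5 reads. Cdc14a KO libraries had 6.52 and 9.77 and WT libraries 8.14 and 10.2, so no group stood apart. The Cdc14ab KO minus Cdc14b KO difference was 0.06 ± 0.80 (log2, SE, 95% interval -1.61 to 1.74). The labels do not say which exons were removed, and reads from the 3′ end do not check a deletion that leaves the transcript's end in place.

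Cdc14b (chromosome 13, 64189268 to 64275290, minus strand) had 101 and 132 normalized counts in Cdc14ab KO and 106 and 157 in Cdc14b KO libraries, with 164 and 169 in Cdc14a KO and 197 and 183 in WT. All 4 libraries labelled as lacking Cdc14b lay below the 4 that keep it, and the 2 genotypes lacking it overlapped each other (difference -0.16 ± 0.39, interval -0.97 to 0.65). At day 0 the order was the other way, with 325 and 247 in Cdc14ab KO and 233 and 263 in Cdc14b KO, against 137 and 168 in Cdc14a KO and 104 and 142 in WT. At day 2 the groups overlapped: Cdc14b had 144 and 203 in Cdc14ab KO and 96.7 and 212 in Cdc14b KO, with 257 and 288 in Cdc14a KO and 141 and 263 in WT. The 3′ level of Cdc14b thus does not separate the genotypes in 1 direction over the days.

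Utf1 (chromosome 7, 139943789 to 139945112, plus strand), the chromatin factor named in the series title, had 1648 and 987 normalized counts in Cdc14ab KO and 1566 and 2012 in Cdc14b KO libraries. Cdc14a KO libraries had 790 and 754 and WT libraries 677 and 411. The 4 libraries without Cdc14b all lay above the 4 with it, but within that pair of genotypes the values overlapped. The Cdc14ab KO minus Cdc14b KO difference was -0.48 ± 0.40 (interval -1.31 to 0.35, adjusted p = 1 in limma).

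Among the 12 genes named for a higher level in Cdc14ab KO, none of which passed the test, the usual picture was a step in clone 1 and a larger one in clone 3. Golgb1, which encodes the Golgi matrix protein giantin, had 337 and 823 normalized counts in Cdc14ab KO clones 1 and 3, against 198 and 170 in Cdc14b KO clones 1 and 3 (difference 1.52 ± 0.37, interval 0.75 to 2.28, adjusted p = 1 in limma). Bbx, an HMG-box factor, had 636 and 1910 in Cdc14ab KO against 417 and 357 in Cdc14b KO (1.51 ± 0.38). In both genes the Cdc14b KO libraries were the lowest of the 8 at day 7 and Cdc14ab KO clone 3 the highest. Magi3, a scaffold of cell junctions, had 80.6 and 329 in Cdc14ab KO against 46.6 and 31.5 in Cdc14b KO (2.06 ± 0.52). Nacad, related to the nascent polypeptide-associated complex, had 120 and 958 in Cdc14ab KO against 73.9 and 60.3 in Cdc14b KO (2.33 ± 0.62). For Nacad, Cdc14ab KO clone 1 lay below the 209 to 333 of the Cdc14a KO and WT libraries, as the Cdc14b KO libraries did, and clone 3 lay above them.

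Htatsf1, a nuclear RNA-binding protein linked to splicing, had 368 and 1403 normalized counts in Cdc14ab KO against 283 and 172 in Cdc14b KO (1.70 ± 0.44). Parm1, a mucin-like membrane protein, had 782 and 2979 in Cdc14ab KO against 550 and 387 in Cdc14b KO (1.72 ± 0.49). Eps8l2, a regulator of actin, had 141 and 563 in Cdc14ab KO against 84.1 and 51.6 in Cdc14b KO (2.08 ± 0.59). These again put clone 3 far above clone 1. The gap between the clones was smaller for Spag9, a scaffold for kinases and motor proteins, with 352 and 577 in Cdc14ab KO against 219 and 102 in Cdc14b KO (1.58 ± 0.45). It was also smaller for Uap1l1, a relative of the enzyme that makes UDP-N-acetylglucosamine, with 278 and 447 in Cdc14ab KO against 188 and 114 in Cdc14b KO (1.26 ± 0.34). Rxylt1 (dystroglycan glycosylation), Baz2a (silencing of ribosomal DNA) and Acbd3 (a Golgi protein) completed the 12, at 1.72 ± 0.48, 1.25 ± 0.35 and 1.14 ± 0.32. For 10 of the 12 both Cdc14b KO libraries lay below all 4 Cdc14a KO and WT libraries, for 6 Cdc14ab KO clone 1 lay within the range of those 4, and for 10 clone 3 lay above it. Over all 2426 genes with both Cdc14ab KO libraries above, the corresponding counts were 1017, 1238 and 1432.

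**Figure D2:**
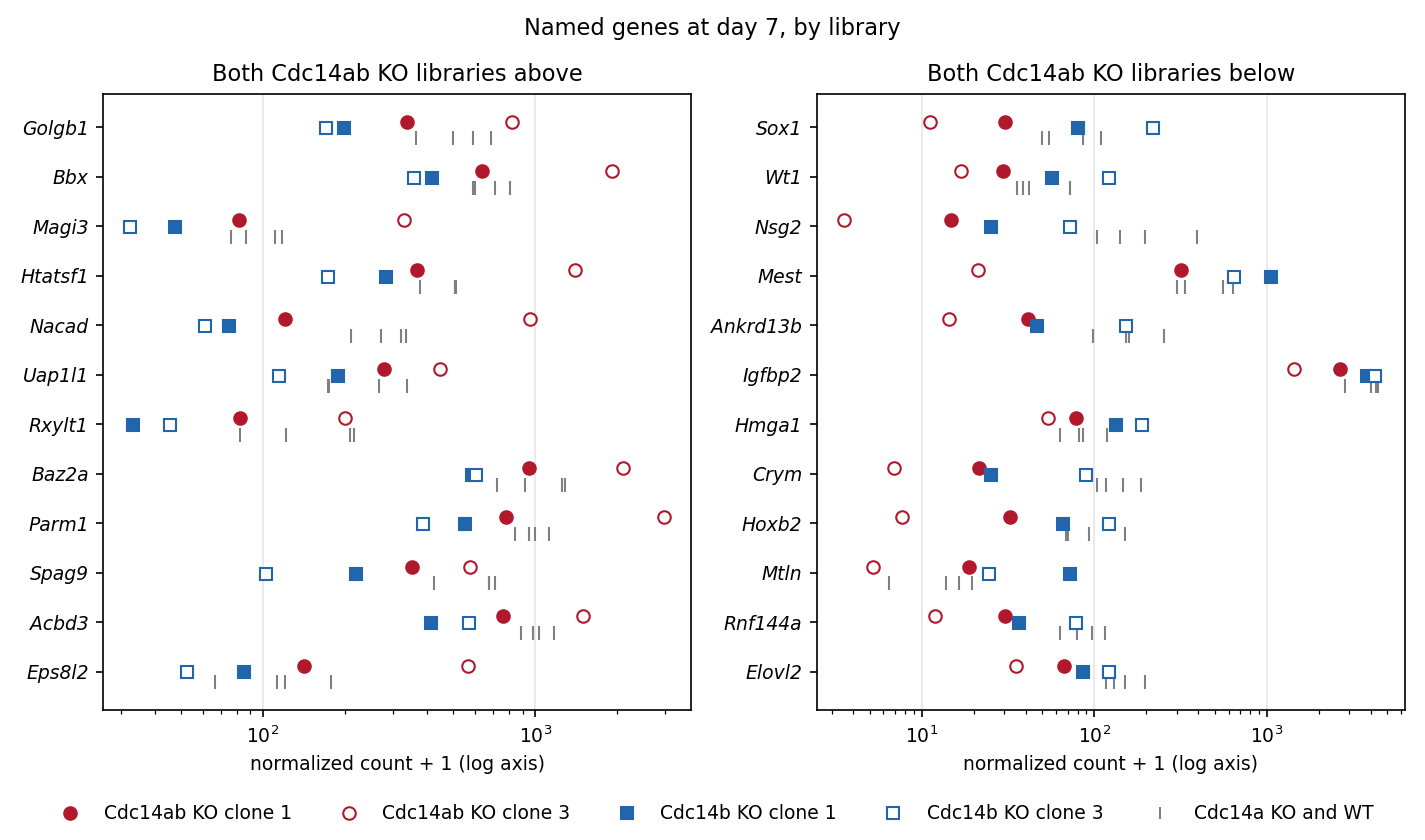
Normalized counts plus 1 (log axis) of the 24 named genes in each day 7 library: red circles for Cdc14ab KO, blue squares for Cdc14b KO (filled for clone 1, open for clone 3), grey ticks for the 4 Cdc14a KO and WT libraries. Cdc14ab KO clone 3 is the outermost of the 4 knockout points in all 24 genes, for example 958 for Nacad against 120 in clone 1.

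The lowest p among the named genes belonged to Sox1, the earliest marker of neuroectoderm, at chromosome 8, 12395295 to 12400126, plus strand. Sox1 had 29.5 and 10.1 normalized counts in Cdc14ab KO against 79 and 218 in Cdc14b KO (difference -2.85 ± 0.62, interval -4.14 to -1.56, adjusted p = 1 in limma). Cdc14a KO libraries had 48.9 and 53.7 and WT libraries 109 and 85.4, so both Cdc14ab KO libraries were the lowest of the 8 and Cdc14b KO clone 3 was the highest. At day 2 the groups overlapped, with 156 and 127 in Cdc14ab KO and 122 and 166 in Cdc14b KO. At day 0 the level was 17.7 and 15.8 in Cdc14ab KO and 7.13 and 15.6 in Cdc14b KO. Relative to day 2, the day 7 level of Sox1 was thus lower in both Cdc14ab KO clones and in Cdc14b KO clone 1, and higher in Cdc14b KO clone 3.

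The other 11 named genes with both Cdc14ab KO libraries below had varied roles. Wt1, a zinc-finger regulator of mesodermal organs, had 28.5 and 15.9 normalized counts in Cdc14ab KO against 55.7 and 120 in Cdc14b KO (-1.89 ± 0.54). Hoxb2, a hindbrain Hox gene, had 31.4 and 6.71 in Cdc14ab KO against 64.8 and 120 in Cdc14b KO (-2.49 ± 0.78). Igfbp2, which binds insulin-like growth factors, had 2659 and 1432 in Cdc14ab KO against 3828 and 4259 in Cdc14b KO (-1.05 ± 0.32). The 2 Cdc14ab KO libraries held the lowest Igfbp2 levels of the 8, since Cdc14a KO and WT libraries had 2855 to 4413. Hmga1, an AT-hook chromatin protein, had 77.6 and 52.9 in Cdc14ab KO against 133 and 187 in Cdc14b KO (-1.28 ± 0.40). The Cdc14b KO libraries lay above the 61.9 to 117 of the Cdc14a KO and WT libraries, Cdc14ab KO clone 1 within that range and clone 3 below it.

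Nsg2, a neuronal endosomal protein, had 13.8 and 2.52 normalized counts in Cdc14ab KO against 24.3 and 71.7 in Cdc14b KO (-2.57 ± 0.75), and Cdc14a KO and WT libraries had 103 to 394. Crym, which binds thyroid hormone, had 20.6 and 5.88 in Cdc14ab KO against 24.3 and 88.3 in Cdc14b KO (-1.96 ± 0.61), below the 103 to 185 of the other genotypes. In these genes the 2 genotypes without Cdc14b were both below the rest, and Cdc14ab KO clone 1 was close to Cdc14b KO clone 1. Ankrd13b (-1.79 ± 0.54), Rnf144a (-1.48 ± 0.49), Elovl2 (-1.07 ± 0.36) and Mtln (-2.09 ± 0.68) make up the rest of the 12 together with Mest, described with the imprinted genes. All 12 were lowest of the 8 day 7 libraries in Cdc14ab KO clone 3.

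DESeq2, run on whole reads recovered from the deposited values, called 17 genes higher and Sox1 lower in Cdc14ab KO. The 17 were Amz1, Arhgef16, Atp2a3, Bbx, Csf1r, Epn3, Eps8l2, Exoc3l4, Fstl3, Golgb1, Htatsf1, Magi3, Mbnl3, Nacad, Parm1, Tgm2 and Tns4. In all 17 Cdc14ab KO clone 3 was the highest of the 8 libraries, and its median log2 distance from the Cdc14b KO mean was 3.38, against 0.76 in Cdc14ab KO clone 1. Epn3, an endocytic adaptor of epithelia, had 109 and 1144 normalized counts in Cdc14ab KO against 59.8 and 51.6 in Cdc14b KO (DESeq2 log2 fold change 3.49 ± 0.75, adjusted p = 0.015). Tgm2, a transglutaminase that crosslinks proteins, had 1110 and 6156 in Cdc14ab KO against 745 and 644 in Cdc14b KO (2.39 ± 0.55, adjusted p = 0.023 in DESeq2). For Sox1, DESeq2 gave -2.92 ± 0.59 (adjusted p = 0.0055). None of the 18 was called by edgeR on the same reads, with an edgeR adjusted p of 0.60 for each.

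The weight of clone 3 can be read from the fits that leave out 1 library. Without Cdc14ab KO clone 1, limma called 140 genes higher (0.866%) and 23 lower (0.142%), and with any other of the 4 libraries left out it called 0. That fit sets 1 library against 2 and assumes that clone 3 varies like the other clones. In clone 3 the 140 lay at a median of 2.35 log2 units above the Cdc14b KO mean, and in clone 1 at 0.33. Clone 1 was on the same side of the Cdc14b KO mean for 117 of these genes. In 96 of them both clones were above both Cdc14b KO libraries, against 15.0% of all genes. The genes were chosen against the same Cdc14b KO libraries, which lay below all Cdc14a KO and WT libraries in 68 of them. Such a choice favours low Cdc14b KO values, so these counts are no separate evidence from clone 1. Clone 3 was the highest of the 8 day 7 libraries in 138 of the 140 and the lowest in all 23 of those called lower. The 140 and the 23 therefore describe what set the clone 3 library apart, and a property of the genotype and one of the line cannot be told apart here.

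Trophectoderm genes had the highest median of the 40 lists. All 16 of the 17 listed genes that passed the filter had a log2 difference above 0, with a median of 1.32 against 0.01 over all genes. Both Cdc14ab KO libraries lay above both Cdc14b KO libraries for 8 of the 16 (background 15.0%) and below for 0. The list was 2.62 log2 units above the WT mean in Cdc14ab KO clone 3 and 0.44 in clone 1, against 0.33 and -0.13 in Cdc14b KO clones 1 and 3. Without Cdc14ab KO clone 3 the list median was 0.43, so most of its size rested on that library. Summed over the list, the level was 12586 and 49429 normalized counts in Cdc14ab KO and 11392 and 7191 in Cdc14b KO, and none of the 16 was at 0 in any of the 4 libraries.

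Krt18, the type I keratin of simple epithelia, had 3847 and 23242 normalized counts in Cdc14ab KO against 2839 and 2590 in Cdc14b KO (difference 1.80 ± 0.75, interval 0.22 to 3.38, adjusted p = 1 in limma). Krt8, its type II partner, had 1791 and 9745 in Cdc14ab KO against 1386 and 1315 in Cdc14b KO (1.63 ± 0.77). Krt7 had 447 and 2910 in Cdc14ab KO against 340 and 353 in Cdc14b KO (1.72 ± 0.72). The keratin pair and Krt7 were more than 5 times higher in Cdc14ab KO clone 3 than in clone 1, while clone 1 exceeded the Cdc14b KO libraries by a small margin. Cdc14a KO libraries had 6840 and 6974 for Krt18 and WT libraries 4481 and 3700, so Cdc14ab KO clone 1 lay near WT and Cdc14b KO below it.

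Cyp11a1, the first enzyme of steroid synthesis and active in placental giant cells, had 52.1 and 530 normalized counts in Cdc14ab KO against 47.6 and 28 in Cdc14b KO (2.16 ± 0.89). Tead4, the factor that starts the trophectoderm program, had 136 and 310 in Cdc14ab KO against 114 and 59.5 in Cdc14b KO, with no overlap. Cdx2, the factor most specific to the lineage, stayed low, at 5.89 and 34.4 in Cdc14ab KO and 6.08 and 4.37 in Cdc14b KO (1.34 ± 1.38). Gata3 had 288 and 712 in Cdc14ab KO and 342 and 162 in Cdc14b KO, which overlap. Eomes, at 34.4 and 47.8 in Cdc14ab KO and 51.7 and 22.7 in Cdc14b KO, overlapped as well.

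The same 4 keratins headed the keratin list, where 9 of 15 members had both Cdc14ab KO libraries above (60.0%) and 0 below, with a median of 0.72. The other keratins were low: Krt17, Krt14, Krt20, Krt15 and Krt79 were under 35 normalized counts in all 4 libraries. At day 2 Krt18 had 629 and 2442 in Cdc14ab KO and 578 and 1511 in Cdc14b KO, so both clones numbered 3 were above both numbered 1. At day 0 it had 634 and 520 in Cdc14ab KO and 592 and 338 in Cdc14b KO.

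**Figure D3:**
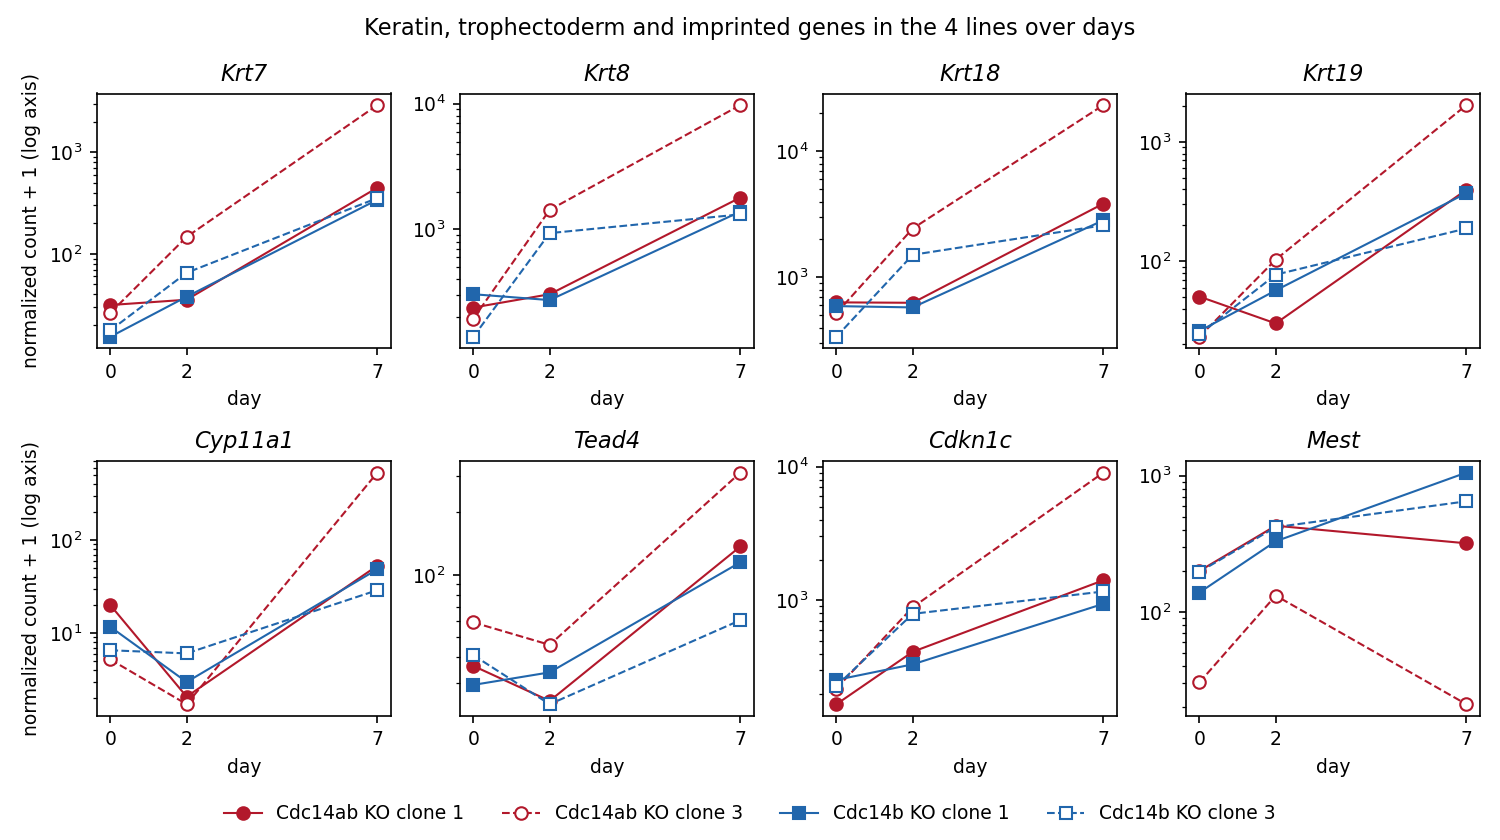
Normalized counts plus 1 (log axis) of 8 genes at days 0, 2 and 7 in the Cdc14ab KO (red circles) and Cdc14b KO lines (blue squares), with clone 1 filled and solid, clone 3 open and dashed. Cdc14ab KO clone 3 is highest at day 7 for the keratins, Cyp11a1, Tead4 and Cdkn1c (for Cdkn1c 9016 against 1411 in clone 1). For Krt18 it was already the highest line at day 2. It lies below the other lines at each day for Mest.

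Of 46 imprinted genes, 10 had both Cdc14ab KO libraries above (21.7%) and 5 below (10.9%), with a median of 0.23. Cdkn1c, the maternally expressed inhibitor of cyclin-dependent kinases, had 1411 and 9016 normalized counts in Cdc14ab KO against 940 and 1163 in Cdc14b KO (1.77 ± 0.62). Peg10, a retrotransposon-derived gene needed for the placenta, had 2318 and 7448 in Cdc14ab KO against 2104 and 1114 in Cdc14b KO (1.44 ± 0.64). Mest, paternally expressed and related to hydrolases, had 318 and 20.1 in Cdc14ab KO against 1051 and 647 in Cdc14b KO (-3.33 ± 0.97, interval -5.37 to -1.28). The low Mest level of Cdc14ab KO clone 3 was already present before differentiation, with 199 and 29.5 in Cdc14ab KO and 138 and 196 in Cdc14b KO at day 0, and 428 and 131 in Cdc14ab KO against 329 and 418 in Cdc14b KO at day 2. Cdc14ab KO clone 1 was slightly above both Cdc14b KO libraries at days 0 and 2 and below both at day 7. H19 overlapped, at 41752 and 16725 in Cdc14ab KO and 32118 and 22121 in Cdc14b KO.

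Endoderm, antigen presentation and hypoxia genes were mostly higher in clone 3 than in clone 1 of both genotypes. Clone 3 exceeded clone 1 in 11 of 12 endoderm genes, 12 of 14 antigen presentation genes and 24 of 26 hypoxia genes in Cdc14ab KO, and in 9, 11 and 18 of them in Cdc14b KO. For the trophectoderm list the counts were 14 of 16 in Cdc14ab KO and 1 of 16 in Cdc14b KO. Of 21 endoderm genes listed only 12 passed the filter, among them the basement membrane genes Lama1, Lamb1, Lamc1, Col4a1 and Col4a2. In this list 3 of 12 members had both Cdc14ab KO libraries above (25.0%) and 0 below. It was 1.46 log2 units above WT in Cdc14ab KO clone 3 but -0.04 in clone 1, against -0.57 and -0.21 in Cdc14b KO. Col4a1, a basement membrane collagen, had 411 and 1479 normalized counts in Cdc14ab KO against 292 and 363 in Cdc14b KO (1.26 ± 0.59). Lama1, a laminin chain of basement membrane, had 23.6 and 530 in Cdc14ab KO and 11.1 and 75.2 in Cdc14b KO, which overlap. Hhex, a factor of anterior endoderm, was lowest in Cdc14ab KO clone 3, with 21.6 and 1.68 in Cdc14ab KO and 50.6 and 18.4 in Cdc14b KO.

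Of 14 genes of the immunoproteasome and class I antigen presentation, 4 had both Cdc14ab KO libraries above (28.6%) and 0 below. H2-D1, a class I heavy chain, had 444 and 1740 normalized counts in Cdc14ab KO against 412 and 373 in Cdc14b KO (1.16 ± 0.69), and genes of this family share sequence, so reads may be split between them. Tapbp, which loads peptides onto class I, had 351 and 2152 in Cdc14ab KO and 296 and 586 in Cdc14b KO. Ndrg1, induced by hypoxia, had 461 and 3508 in Cdc14ab KO and 514 and 256 in Cdc14b KO (1.81 ± 0.76). In the 26 hypoxia and glycolysis genes 3 were above (11.5%) and 3 below, no more than over all genes. Of 19 germline genes 5 were above (26.3%) and 0 below, while 12 differences were below 0 and the median was -0.25. Dmc1, a recombinase of meiosis, had 226 and 106 normalized counts in Cdc14ab KO and 277 and 222 in Cdc14b KO, and Dazl, an RNA-binding protein of germ cells, had 205 and 26 in Cdc14ab KO and 297 and 53.3 in Cdc14b KO. Rhox6 and Rhox9 are X-linked homeobox genes also expressed in placenta. Rhox6 had 4211 and 20654 in Cdc14ab KO against 3298 and 2034 in Cdc14b KO, and Rhox9 had 4071 and 18985 in Cdc14ab KO against 2963 and 1972 in Cdc14b KO.

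Neural lists leaned the other way, toward lower levels in Cdc14ab KO, and the clones of Cdc14b KO and of Cdc14a KO were split as well. Of 26 neural progenitor genes 7 had both Cdc14ab KO libraries below (26.9%, background 13.0%) and 0 above, with a median of -0.47. Against the WT mean the list stood at -1.58 and -1.95 in Cdc14ab KO and at -1.57 and -0.54 in Cdc14b KO. Cdc14b KO clone 1 thus lay with the Cdc14ab KO clones and Cdc14b KO clone 3 nearer to WT. Without Cdc14b KO clone 3 the median difference was -0.07, and without Cdc14b KO clone 1 it was -1.45.

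Pax6, a factor of neural progenitors, had 21.6 and 15.1 normalized counts in Cdc14ab KO against 30.4 and 116 in Cdc14b KO (-1.67 ± 0.72). Sox3, a partner of Sox1 in progenitors, had 92.4 and 57.9 in Cdc14ab KO against 127 and 722 in Cdc14b KO (-2.03 ± 0.89). WT libraries had 769 and 1276 for Sox3, so Cdc14b KO clone 3 was close to WT clone 1 and the other 3 libraries lay far below both WT libraries. Irx3, a progenitor factor, went against the list in 1 library, with 641 and 4637 in Cdc14ab KO and 584 and 1054 in Cdc14b KO. The summed level of the list was 2319 and 5612 in Cdc14ab KO and 2024 and 4343 in Cdc14b KO, so Irx3 alone gave 4637 of the 5612 in Cdc14ab KO clone 3.

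Transcription factors of neuronal subtypes had the lowest median of the neural lists, -0.93, with 9 of 30 below (30.0%) and 1 above. Their level against WT was -2.69 and -3.52 in Cdc14ab KO and -2.86 and -1.27 in Cdc14b KO, and without Cdc14b KO clone 3 the median difference was -0.13. Ebf1, a factor of young neurons, had 22.6 and 5.88 normalized counts in Cdc14ab KO against 27.3 and 70.8 in Cdc14b KO (-1.82 ± 0.84). Bhlhe22, a factor of cortical and retinal neurons, had 7.86 and 1.68 in Cdc14ab KO against 17.2 and 17.5 in Cdc14b KO (-1.91 ± 0.78). Both genes had their lowest value in Cdc14ab KO clone 3.

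Of 17 neuronal RNA-binding genes 6 were below (35.3%) and 0 above, and 16 had a difference below 0. Nova1, a neuronal splicing regulator, had 14.7 and 10.1 normalized counts in Cdc14ab KO against 20.3 and 38.5 in Cdc14b KO (-1.13 ± 0.55). Elavl2 had 110 and 83.1 in Cdc14ab KO against 140 and 191 in Cdc14b KO (-0.77 ± 0.40). These were also below WT in every one of the 4 libraries, since WT had 72.1 and 155 for Nova1 and 278 and 583 for Elavl2.

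Among 58 genes of neural adhesion and axon guidance 16 were below (27.6%) and 5 above (8.62%), with a median of -0.64. Gpm6a, a membrane glycoprotein of growth cones, had 6.88 and 3.36 normalized counts in Cdc14ab KO against 13.2 and 87.4 in Cdc14b KO (-2.60 ± 0.90). Tenm3, a teneurin that guides wiring, had 15.7 and 10.9 in Cdc14ab KO against 32.4 and 31.5 in Cdc14b KO (-1.22 ± 0.44). Of 26 ion channels and transmitter receptors 8 were below (30.8%) and 0 above, and of 40 synapse and vesicle genes 9 were below (22.5%) and 3 above (7.50%). The synaptic list median was -0.51, and it was -0.00 without Cdc14b KO clone 3. Of 24 neuronal cytoskeleton genes 3 were below (12.5%) and 0 above, and 20 differences were below 0 with a median of -0.43. That median was 0.34 without Cdc14b KO clone 3. Leaving out the same library gave medians of -0.09 for adhesion and axon guidance and -0.19 for RNA-binding genes. Stmn2, a tubulin-binding protein of growing axons, had 420 and 313 in Cdc14ab KO against 575 and 917 in Cdc14b KO.

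**Figure D4:**
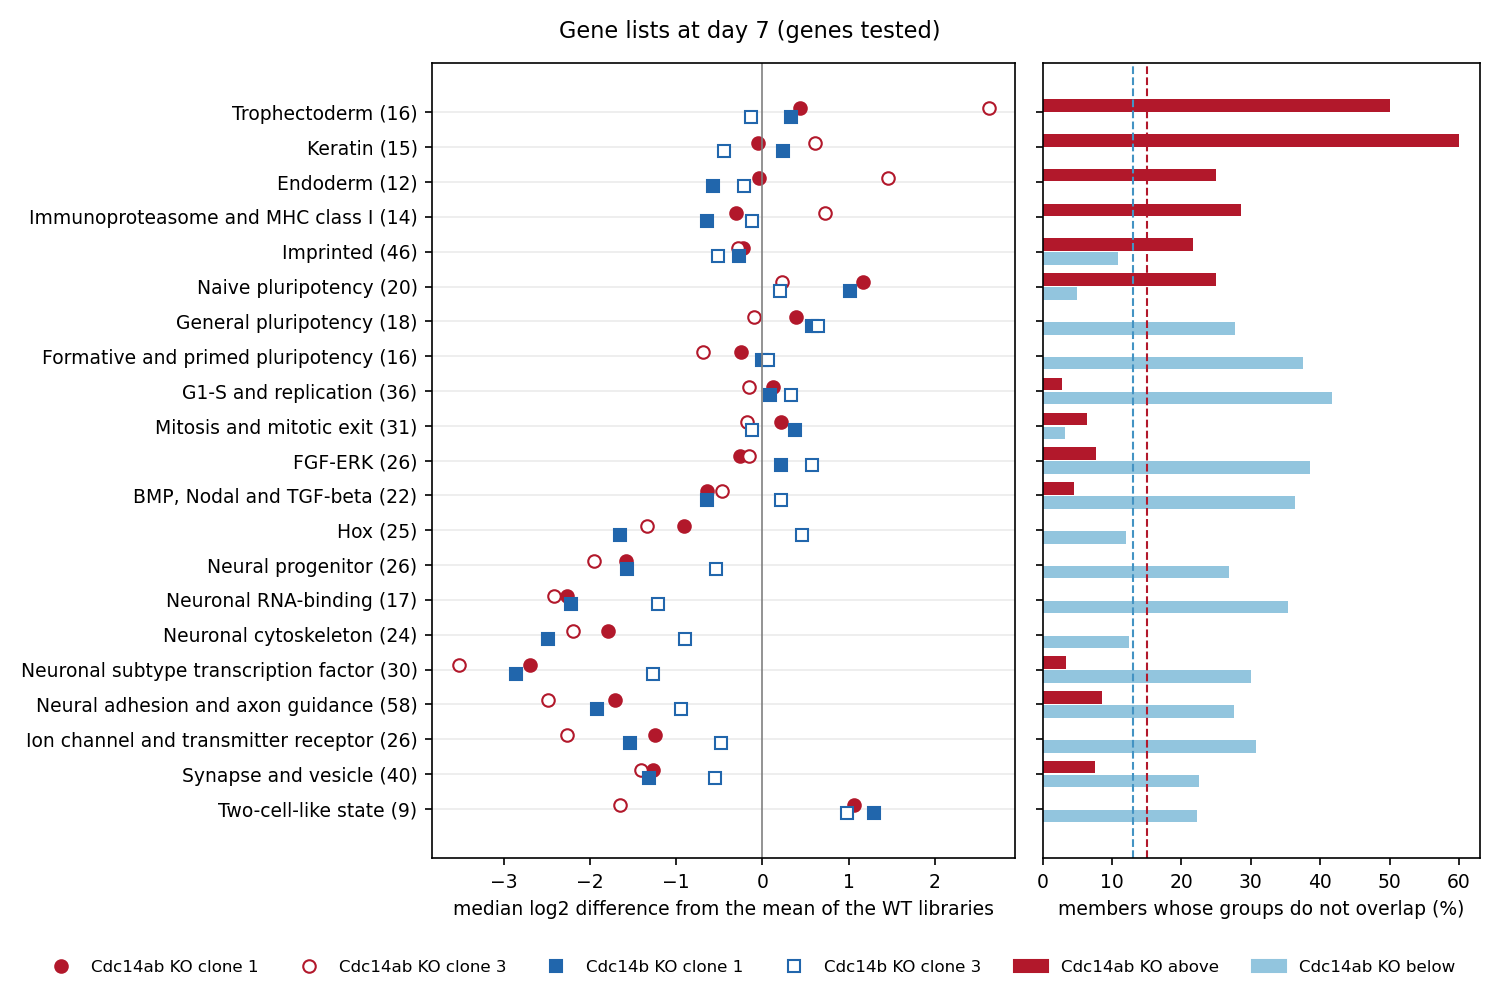
Left, median log2 difference of each gene list from the mean of the WT libraries in each Cdc14ab KO (red circles) and Cdc14b KO library (blue squares), filled for clone 1 and open for clone 3. Right, share of list members with both Cdc14ab KO libraries above (red) or below (light blue) both Cdc14b KO libraries, with dashed lines at the shares over all genes (15.0% and 13.0%); keratins reach 60.0% above and G1-S 41.7% below.

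Pluripotency genes were split by state. Naive genes had no common direction: 5 of 20 were above (25.0%) and 1 below, and the list stood at 1.16 and 0.23 against WT in Cdc14ab KO and at 1.01 and 0.20 in Cdc14b KO, which separates the clone numbers rather than the genotypes. Zfp42 (Rex1), a naive marker, had 326 and 509 normalized counts in Cdc14ab KO against 199 and 136 in Cdc14b KO (1.31 ± 0.58), and Klf4 had 771 and 1008 in Cdc14ab KO against 403 and 196 in Cdc14b KO (1.65 ± 0.97). Gbx2, listed as naive and also a hindbrain regulator, had 15.7 and 15.1 in Cdc14ab KO against 41.5 and 106 in Cdc14b KO (-2.04 ± 0.72). Of 16 formative and primed genes 6 were below (37.5%) and 0 above, with a median of -0.55. Fgf5, the classic primed marker, was at the limit of detection, with 1 read in each Cdc14ab KO library and 5.06 and 10.5 normalized counts in Cdc14b KO libraries.

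Of 18 general pluripotency genes 5 were below (27.8%) and 0 above. Lin28a, which blocks maturation of let-7, had 597 and 568 normalized counts in Cdc14ab KO against 766 and 2000 in Cdc14b KO (-1.09 ± 0.47). Tdgf1, the co-receptor of Nodal, had 322 and 305 in Cdc14ab KO against 555 and 482 in Cdc14b KO (-0.72 ± 0.34). Tdgf1 is also in the list of BMP, Nodal and TGF-beta genes, where 8 of 22 were below (36.4%) and 1 above (4.55%). The median of that list was only -0.20, with 13 differences below 0 and 9 above. Lefty2, a feedback inhibitor of Nodal, had 212 and 245 in Cdc14ab KO against 425 and 904 in Cdc14b KO (-1.44 ± 0.64), and Lefty1 had 237 and 193 in Cdc14ab KO against 334 and 1218 in Cdc14b KO (-1.57 ± 0.77). Nodal itself overlapped, at 781 and 321 in Cdc14ab KO and 738 and 846 in Cdc14b KO.

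G1-S and replication genes had the highest share below, 15 of 36 (41.7%), against 1 above (2.78%), and the differences were small, with a median of -0.35. Rrm2, the ribonucleotide reductase subunit of S phase, had 686 and 479 normalized counts in Cdc14ab KO against 808 and 1040 in Cdc14b KO (-0.68 ± 0.30). Mcm2, of the replicative helicase, had 770 and 530 in Cdc14ab KO against 1085 and 900 in Cdc14b KO (-0.63 ± 0.32). Cdk4 had 1063 and 1115 in Cdc14ab KO against 1306 and 1837 in Cdc14b KO (-0.51 ± 0.31). For Rrm2 all 4 libraries without Cdc14b lay above the 301 to 386 of the Cdc14a KO and WT libraries. For Mcm2 3 of the 4 lay above their range of 396 to 570, and Cdc14ab KO clone 3 lay within it. The cyclins Ccnd1 (381 and 447 in Cdc14ab KO, 315 and 798 in Cdc14b KO) and Ccne1 (850 and 814 in Cdc14ab KO, 748 and 983 in Cdc14b KO) overlapped.

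Mitosis and mitotic exit genes, the process in which Cdc14 acts in yeast, did not follow: 2 of 31 were above (6.45%) and 1 below (3.23%), both under the background, with a median of -0.12. Aurkb, a kinase of the chromosomal passenger complex, had 17.7 and 14.3 normalized counts in Cdc14ab KO against 66.9 and 22.7 in Cdc14b KO (-1.25 ± 0.58). Ccna2 overlapped, at 310 and 209 in Cdc14ab KO and 484 and 305 in Cdc14b KO. Of 21 p53 targets 6 were above (28.6%) and 1 below (4.76%), with a median of 0.08.

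Of 26 genes of FGF-ERK signalling 10 were below (38.5%) and 2 above (7.69%). Spry2, a feedback inhibitor of the pathway, had 275 and 111 normalized counts in Cdc14ab KO against 342 and 352 in Cdc14b KO (-0.99 ± 0.50). Dusp6, a phosphatase that acts on ERK, had 741 and 125 in Cdc14ab KO against 980 and 748 in Cdc14b KO (-1.49 ± 1.17). Both were lowest in Cdc14ab KO clone 3. The receptor Fgfr1 had 622 and 545 in Cdc14ab KO against 711 and 695 in Cdc14b KO (-0.27 ± 0.43). Ier3, an early response gene, ran the other way in 1 library, with 407 and 1291 in Cdc14ab KO and 435 and 434 in Cdc14b KO.

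Hox genes leaned lower, with 23 of 25 differences below 0 and a median of -0.57, but only 3 had both Cdc14ab KO libraries below (background 13.0%). Their level against WT was -0.91 and -1.34 in Cdc14ab KO and -1.65 and 0.46 in Cdc14b KO, and the median difference was 0.25 without Cdc14b KO clone 3. Hoxb8 had 56 and 21 normalized counts in Cdc14ab KO and 35.5 and 440 in Cdc14b KO. Developmental regulators whose promoters are bivalent in ES cells, the class on which UTF1 acts, had 14 of 77 members below (18.2%) and 5 above (6.49%), with a median of -0.44. Against WT they stood at -1.15 and -1.52 in Cdc14ab KO and at -1.47 and -0.52 in Cdc14b KO. Among the 4 libraries, genes of the 2-cell-like state were low in Cdc14ab KO clone 3. Zscan4c had 80.6 and 10.1 in Cdc14ab KO and 81 and 84.8 in Cdc14b KO. The list median of -1.44 was 0.08 without Cdc14ab KO clone 3. The summed level of the list was 1302 and 156 in Cdc14ab KO and 1259 and 830 in Cdc14b KO. Cdc14a KO clone 3 was as low, at 130 against 929 in its clone 1, and WT clones 1 and 3 had 693 and 354.

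The response to the medium was described on genes picked in other libraries, those with an adjusted p under 0.05 (limma) and at least a 2-fold change from day 0 to day 7 in WT and Cdc14a KO lines. Of 2257 such genes that rose, the median Cdc14ab KO minus Cdc14b KO difference was 0.11, with 455 above (20.2%) and 214 below (9.48%). These genes were selected for a large change in the Cdc14a KO and WT libraries, so libraries outside that selection tend to fall short of their mean by construction, and only the 4 libraries are compared with each other. Against that mean the genes stood at -0.67 and -0.55 in Cdc14ab KO and at -0.94 and -0.58 in Cdc14b KO. Of 1534 genes that fell, the median was -0.34, with 91 above (5.93%) and 344 below (22.4%). They stood at 0.72 and 0.35 in Cdc14ab KO and at 1.01 and 0.69 in Cdc14b KO. For the genes that rose the clones of Cdc14b KO differed by more than the genotypes did. For the genes that fell, the level was lowest in Cdc14ab KO clone 3 and highest in Cdc14b KO clone 1. The median for the genes that rose was -0.03 without Cdc14b KO clone 1 and 0.34 without Cdc14b KO clone 3.

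Whether the day 7 difference was itself different from that at earlier days was tested as an interaction in the same fit. limma called 0 genes (0%) against day 0, with 697 (4.31%) at an unadjusted p under 0.05 and a smallest adjusted p of 0.94. Against day 2 it called 0 (0%), with 205 (1.27%) at an unadjusted p under 0.05. edgeR and DESeq2 called 0 for both. The median SE of an interaction was 0.78 log2 units. Sox1 had the lowest p of the genes named as lower against day 0, with an interaction of -3.46 ± 0.87 (adjusted p = 0.94 in limma), and -2.83 ± 0.87 against day 2. Leaving out 1 library opened calls in the comparison with day 0: 297 without the Cdc14ab KO clone 3 library of day 0, and 2 without the Cdc14ab KO clone 1 library of day 7. The 297 rest on the Cdc14ab KO clone 1 library as the only one of its genotype at day 0, assumed to vary like the other clones. That library had the most genes at 0 of the 24 (5.227%) and 8.697% of its reads on Gm42418, and 12.5% of genes differed by at least 4-fold between the Cdc14ab KO clones at day 0, and the part of either in the calls was not tested.

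Whether loss of Cdc14a did more or less where Cdc14b was absent was tested as the difference between the Cdc14ab KO minus Cdc14b KO and Cdc14a KO minus WT differences at day 7, which share no library. limma called 0 genes (0%), with 93 (0.576%) at an unadjusted p under 0.05, and edgeR and DESeq2 called 0. Atp2a3, a calcium pump of the endoplasmic reticulum, headed the genes named as higher, with 42.2 and 355 normalized counts in Cdc14ab KO, 22.3 and 21 in Cdc14b KO, 43.4 and 22.8 in Cdc14a KO and 40.7 and 54.6 in WT (3.02 ± 1.03, adjusted p = 1 in limma). Nacad had 2.17 ± 0.88 and Magi3 1.94 ± 0.74. Sox1 had -1.95 ± 0.87, since it was also lower in Cdc14a KO (48.9 and 53.7) than in WT (109 and 85.4). Over the trophectoderm list the median of this interaction was 0.94, against 0.06 over all genes.

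The order of the 2 genotypes was also counted at the earlier days. Both Cdc14ab KO libraries lay above both Cdc14b KO libraries for 15.7% of genes and below for 14.6% at day 0, and for 8.71% and 7.73% at day 2. Of the 2426 genes above at day 7, 409 (16.9%) were also above at day 0 and 297 (12.2%) were below there. The order held at days 0, 2 and 7 for 64 genes above (0.396%) and 43 below (0.266%). These genes were examined after their values were seen and are given as values only.

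Tgm2 was in this set, with 36.7 and 30.6 normalized counts in Cdc14ab KO against 17.8 and 22.2 in Cdc14b KO at day 0, 60.2 and 85.6 in Cdc14ab KO against 52.8 and 58.3 in Cdc14b KO at day 2, and 1110 and 6156 in Cdc14ab KO against 745 and 644 in Cdc14b KO at day 7. Eps8l2 was too, with 113 and 46.4 in Cdc14ab KO against 21.4 and 35.6 in Cdc14b KO at day 0, and 40.9 and 39.2 in Cdc14ab KO against 29.9 and 24.5 in Cdc14b KO at day 2. The gap at day 2 was small for both. Galns, a lysosomal sulfatase, had 43 and 44.3 in Cdc14ab KO against 35.6 and 24.4 in Cdc14b KO at day 0, 59.2 and 66 in Cdc14ab KO against 23.9 and 38.9 in Cdc14b KO at day 2, and 111 and 473 in Cdc14ab KO against 94.2 and 102 in Cdc14b KO at day 7.

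Among genes below at every day, Asb4, an imprinted gene of a ubiquitin ligase family, had 1.27 and 2.11 normalized counts in Cdc14ab KO against 13.1 and 6.67 in Cdc14b KO at day 0, 21.5 and 23.9 in Cdc14ab KO against 24.9 and 43.1 in Cdc14b KO at day 2, and 44.2 and 22.7 in Cdc14ab KO against 50.6 and 150 in Cdc14b KO at day 7. Yae1d1 had 41.8 and 203 in Cdc14ab KO against 590 and 231 in Cdc14b KO at day 0, and 289 and 138 in Cdc14ab KO against 377 and 350 in Cdc14b KO at day 7. Zmat4 had 140 and 87.6 in Cdc14ab KO against 195 and 218 in Cdc14b KO at day 0, and 29.5 and 10.1 in Cdc14ab KO against 50.6 and 37.6 in Cdc14b KO at day 7. For Asb4 and Yae1d1 the clones of 1 genotype were farther apart on some days than the nearest lines of unlike genotype.

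**Figure D5:**
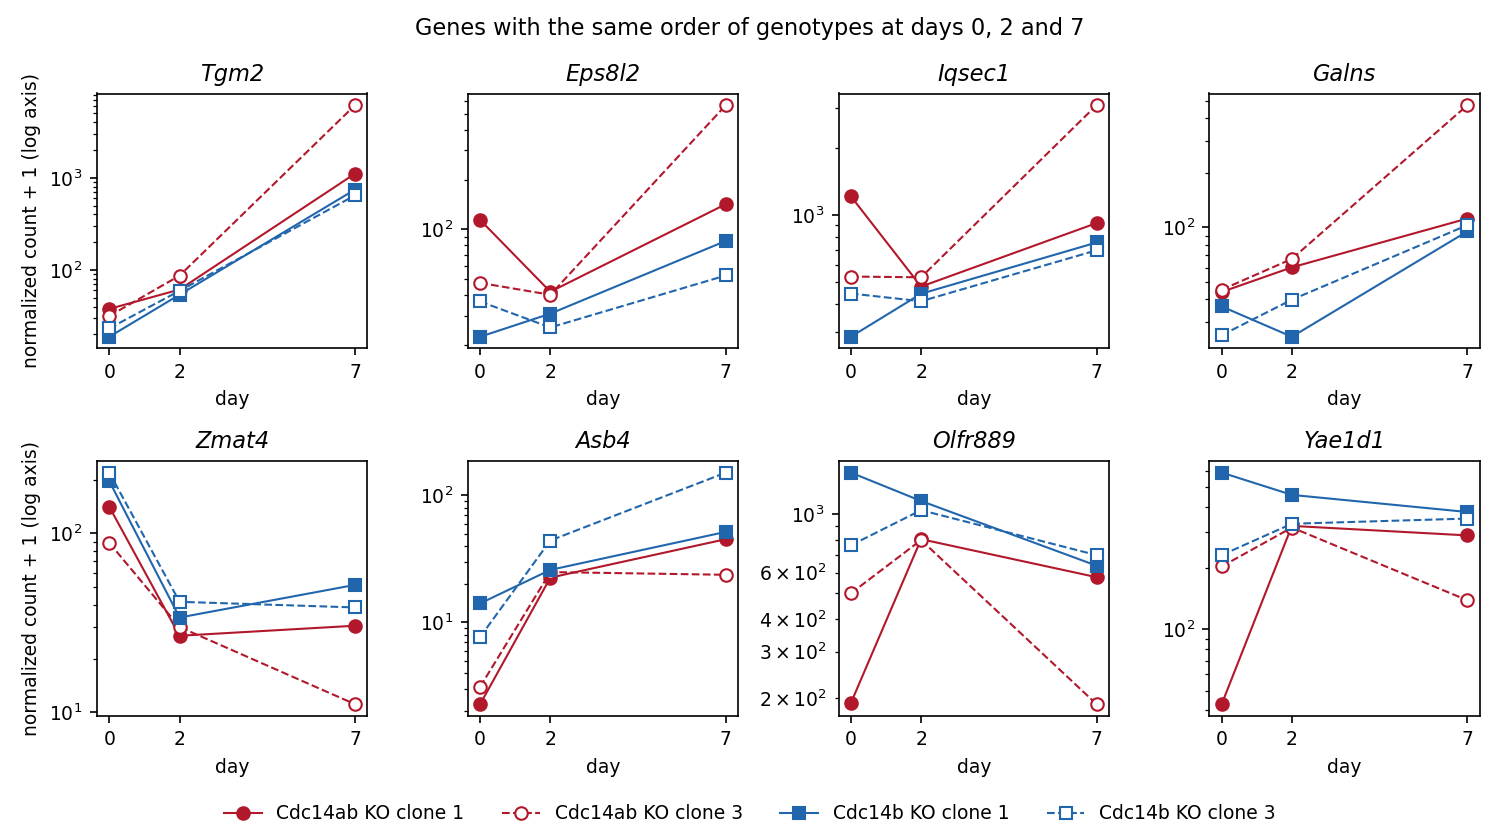
Normalized counts plus 1 (log axis) at days 0, 2 and 7 of 4 genes with both Cdc14ab KO lines (red circles) above both Cdc14b KO lines (blue squares) at every day and 4 with both below, clone 1 filled and solid, clone 3 open and dashed. For Tgm2 the lines are close at day 2 (60.2 and 85.6 in Cdc14ab KO, 52.8 and 58.3 in Cdc14b KO) and Cdc14ab KO clone 3 is highest at day 7 (6156).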

How the data were processed

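Per the labels' protocols, poly(A) RNA of 24 libraries was read from the 3′ end in sense orientation (QuantSeq FWD). Tools named in the submitters' processing notes are HTSeq 0.6.1, SAMtools 0.1.19, TopHat2 2.0.10, FastQC 0.11.7, Bowtie 1.0.0 and DESeq2, on GRCm38. Which annotation was counted is not given in the sources used here. Deposited values are signal: normalized counts of 17545 genes, by the name the authors gave the table. Within a library they are multiples of 1 step, and dividing by it gave whole counts of reads for 100% of values (tolerance 0.001), used for the count tools. No unique molecular identifiers are described, so read numbers bound counting error only.

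Values were taken as log2(normalized count + 1) for the 16158 genes that reached 10 normalized counts in 2 or more libraries. limma 3.58.1 (R 4.3.3; trend, robust) was fitted with 12 group means over all 24 libraries (12 residual degrees of freedom) and Benjamini-Hochberg adjustment over all genes. Every adjusted p is from limma unless DESeq2 1.42.0 or edgeR 4.0.16 is named. The fits were also run on simulated counts with known fold changes and the same spread of a gene in every library. Such counts do not cover a group in which a clone stands apart, so no error rate is taken from them. Coordinates are from GENCODE M21 by symbol (17473 matched, 72 not).

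The targeted genes and Utf1 are always named. Each comparison names up to 12 genes per direction that average at least 20 normalized counts. Called ones come first by fold change, then those with the smallest unadjusted p. For the day 7 difference the libraries must not overlap, and for the interactions with day the changes of the clones must not. The comparison with the Cdc14a KO minus WT difference had no such condition. Xist, Y-linked genes, pseudogenes and predicted genes are left out. Each list names up to 4 members by p. Further list members, DESeq2 calls and genes ordered alike at all days were chosen after their values were seen. The comparison, the 40 gene lists and the rule were chosen with earlier results of these data known.

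A line was the same cells at each day. Clone deviations of a line correlated at -0.021 (days 0 and 7) and 0.175 (days 2 and 7) in Cdc14ab KO and at 0.028 and 0.248 in Cdc14b KO. A replicate block by line, added after the data were seen, called 0 genes for both interactions with day. Alternatives were pseudocounts of 0.25 and 5, a filter of 50 normalized counts or none, TMM factors, both count tools, a fit of only the groups compared, a fit without 3 libraries with over 7% of reads on Gm42418, line as a random effect, clone number as a block, and leaving out each library. No sequence is shown. Figures used Python 3.11.15 with matplotlib 3.10.9.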

Additional observations from a re-analysis of the deposited data

How the results depend on the processing

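limma's count of 0 called genes held under every alternative that kept all 4 day 7 libraries; DESeq2 gave 18, of which Sox1 and 7 of the genes named as higher are part. Leaving out 1 library at a time gave 0 to 163 calls at day 7 (163 without Cdc14ab KO clone 1), 0 to 297 for the interaction with day 0 and 0 to 1 for that with day 2. Between genotypes the labels share only a clone number. Clone deviations correlated at 0.231 for the pair compared, the lowest of the day 7 pairs of genotypes, and at 0.241 to 0.541 for the others. For the pair compared they correlated at 0.119 at day 0 and 0.628 at day 2. The replicate block by clone number called 0 genes in each comparison. With TMM factors no list median moved by more than the spread between clones. For some of the lists, the medians with 1 library left out in turn (log2) ranged as follows: naive pluripotency -0.86 to 0.56, neuronal cytoskeleton -1.0 to 0.34, neuronal subtype factors -1.6 to -0.13, neural progenitor -1.45 to -0.07, synapse -0.75 to -0.00, neural crest -0.48 to -0.30, endoderm 0.09 to 1.56, Hox -2.10 to 0.25, hedgehog and cilium -0.37 to -0.09, FGF-ERK -0.47 to -0.18, retinoic acid -0.95 to 0.33, imprinted 0.10 to 0.33, 2-cell-like -2.92 to 0.08, germline -1.07 to 0.52, G1-S -0.46 to -0.14, p53 -0.23 to 0.34, ATF4 -0.51 to -0.02, cholesterol -0.34 to 0.09, hypoxia -0.41 to 0.99, mitochondrially encoded -0.04 to 0.50, collagen and laminin -0.39 to 0.20, sex chromosome 0.29 to 1.28, and Cdc14 family with Utf1 -0.44 to -0.11. Lists left out of this row moved as well, such as trophectoderm, adhesion and axon guidance, and RNA-binding genes, with medians given above. The genes that rose with the medium ranged from -0.03 to 0.34. The cause was not tested. Genes at 0 in both libraries of a group moved a list median only for ion channels (-0.70 with 3 reads per library set in their place), endothelial and blood (-0.23) and bivalent regulators (-0.43). With 2 clones per genotype the median 95% half-width was 1.16 log2 units, before any adjustment for the number of genes. Differences far above 2-fold were not called by limma either, such as -2.85 for Sox1 and -3.33 for Mest. The count of 0 therefore does not show that larger differences were absent.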

Other observations

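Transcripts of the mitochondrial genome and their ribosomal RNAs were not described above. mt-Rnr2, the large mitochondrial ribosomal RNA, had 11121 and 11444 normalized counts in Cdc14ab KO against 7473 and 4082 in Cdc14b KO (difference 1.03 ± 0.36, adjusted p = 1 in limma), and mt-Rnr1, the small one, had 3203 and 5445 in Cdc14ab KO against 2298 and 1827 in Cdc14b KO (1.03 ± 0.41). Cdc14a KO and WT libraries had 15017 to 20975 for mt-Rnr2 and 3886 to 5781 for mt-Rnr1, so the Cdc14b KO libraries were the lowest of the 8 for both. The whole list of 24 mitochondrially encoded genes had 5 above (20.8%) and 4 below (16.7%), with a median of 0.11.

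Of 28 Wnt genes 1 was above (3.57%) and 4 below (14.3%), with a median of -0.28. The 1 above, Wnt7b, a Wnt ligand of epithelia and brain, had 1210 and 6320 normalized counts in Cdc14ab KO and 832 and 852 in Cdc14b KO (1.72 ± 0.91). In the hedgehog and cilium list 8 of 31 were below (25.8%) and 3 above (9.68%): Smo, the hedgehog transducer, had 40.3 and 33.6 in Cdc14ab KO against 65.8 and 149 in Cdc14b KO (-1.40 ± 0.53), and Gli2, a transcription factor of the same pathway, had 12.8 and 2.52 in Cdc14ab KO against 20.3 and 35.9 in Cdc14b KO (-2.01 ± 0.81). Arl13b, a small GTPase of the ciliary membrane, had 151 and 301 in Cdc14ab KO against 92.2 and 117 in Cdc14b KO (1.03 ± 0.39). Crabp2, which carries retinoic acid to its receptors, had 16.7 and 18.5 in Cdc14ab KO against 35.5 and 110 in Cdc14b KO (-1.78 ± 0.75).

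Tpm3-rs7 and Cdh2 were each lowest in Cdc14ab KO clone 3 and were chosen after their values were seen. Tpm3-rs7, a processed copy of a tropomyosin gene whose reads are uncertain because of its near-identical parent, had 1151 and 41.1 normalized counts in Cdc14ab KO and 1184 and 1195 in Cdc14b KO. Cdh2, the cadherin of neural tissue, had 262 and 55.4 in Cdc14ab KO and 234 and 614 in Cdc14b KO.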
